A study of Mus musculus with 18 samples.

Results

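Oxidative phosphorylation genes were followed in undifferentiated mouse ES cells and in early embryoid bodies (EBs). The members were all cDNA clones of the array whose single gene symbol began with Nduf, Sdha to Sdhd, Uqcr, Cox4 to Cox8 or Atp5, or was Cyc1 or Cycs, and which were measured in all conditions, on 1 array or more. This gave 92 clones of 65 genes, out of 15360 clones on the array, of which 9866 carried 1 symbol, for 7142 genes. Another 2 clones that matched by name were left out because they carried several symbols. Complex I had 24 clones of 22 genes, complex II 5 of 4 genes, complex III 9 of 6 genes, complex IV 16 of 10 genes and ATP synthase (complex V) 29 of 16 genes. Cytochrome c had 2 clones of 1 gene. The name rule also took in 6 clones of 5 assembly factors, whose proteins build complexes I and II without staying in them, and 1 clone of the pseudogene Ndufs5-ps. These 7 clones are kept apart below.

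The respiratory chain sits in the inner mitochondrial membrane. Complexes I and II pass electrons from NADH and succinate to ubiquinone, complex III hands them to cytochrome c, and complex IV (cytochrome c oxidase) gives them to oxygen. The proton gradient that this builds drives ATP synthase, whose F1 head makes ATP and whose Fo part conducts protons. Some pluripotent stem cells are known to lean on glycolysis, and the balance between glycolysis and respiration is known to shift as they differentiate. How far the ES cells used here do so was not measured.

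The samples were IMT11 ES cells, a mouse line without genetic modification, held undifferentiated in medium with leukaemia inhibitory factor (LIF), which is the D0 condition, and EBs made from them in hanging drops of 1000 cells. The EBs were harvested after 1, 2, 3 and 4 days. Medium without LIF gave the EBs named D1-LIF to D4-LIF, and medium that kept LIF gave D1+LIF to D4+LIF, which makes 9 conditions from the same cell line. Each condition was hybridised on 2 two-colour arrays of the NIA 15K mouse cDNA clones, once with the sample in Cy3 and once with the sample in Cy5, against a pool of RNA from the experiment. The labels say that the pool held the day 1 to 4 EBs, whereas the methods say that it held all samples. Each array had its own RNA sample, from 2 biological sets, but the labels do not say which array held which set. Dye and biological set therefore cannot be told apart. Every p-value below from a fit with a dye term rests on the spread between the 2 arrays of a condition. That spread was pooled over the 9 conditions after the mean difference between the dyes was taken out.

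The deposited values are ratios of the 2 channels, each divided by its own mean intensity. After log2 transformation and averaging over both spots of every clone, the median clone of each of the 2 slides of an array was set to 0, so 0 means the level of the median clone. Slide 1 carried 39 of the member clones and slide 2 carried 53. Values were present on every array for 68 members. On slide 1, 24 members had no value on the D2-LIF Cy5 array and 10 had none on the D1+LIF Cy5 array. These 2 slides and slide 1 of the D0 Cy3 array stood apart, with SDs over all clones of 2.10, 2.40 and 2.23 on the log2 scale, against 0.166 to 1.41 on all other slides. The widest of the others was slide 2 of the D4+LIF Cy5 array. Duplicate spots there differed by a median of 0.279 log2 units, against 0.0352 to 0.127 on slide 2 of the other arrays.

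The files do not state which channel is on top of the ratio. The labels put the sample in the first channel on every array, so sample over pool is likely, but it is not settled. On slide 2 the D0 Cy3 and D3-LIF Cy3 arrays had a correlation of -0.31 over all clones, and the Cy3 and Cy5 arrays of the same condition reached -0.73. For this reason differences are given within each dye as well as in the combined fit. The main counts, the member medians and the fitted medians of complexes I and V and cytochrome c are also given with all Cy3 values turned in sign. Fitted differences of single clones are not. Higher and lower below hold if the sample is on top in both dyes. The level of a clone is always given against the pool, so the levels of different genes cannot be ranked against each other.

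Promoter sequences of 5 members are shown, 1 or 2 for each of several steps described below. They are Atp5b (catalytic beta subunit of ATP synthase), Cox6a1 and Cox8a (complex IV), Cycs (cytochrome c) and Sdhb (complex II). The promoter table from RefSeq (GRCm38.p6) matched 53 of the 65 genes. Each line gives the 150 bases before the transcription start, 5′ to 3′, with any matches to 3 motifs in capitals.
Atp5b (chr10:128083157-128083306, plus strand): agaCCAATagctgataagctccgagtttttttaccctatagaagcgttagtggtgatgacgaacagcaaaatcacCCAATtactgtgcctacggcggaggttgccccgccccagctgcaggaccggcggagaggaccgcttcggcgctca
Cox6a1 (chr5:115348959-115349108, minus strand): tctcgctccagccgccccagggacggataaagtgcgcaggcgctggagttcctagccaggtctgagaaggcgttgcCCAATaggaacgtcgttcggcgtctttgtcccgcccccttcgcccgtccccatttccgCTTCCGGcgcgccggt
Cox8a (chr19:7217617-7217766, minus strand): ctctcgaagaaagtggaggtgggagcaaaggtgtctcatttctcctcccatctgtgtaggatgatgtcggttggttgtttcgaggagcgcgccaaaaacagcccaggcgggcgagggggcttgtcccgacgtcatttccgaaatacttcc
Cycs (chr6:50566570-50566719, minus strand): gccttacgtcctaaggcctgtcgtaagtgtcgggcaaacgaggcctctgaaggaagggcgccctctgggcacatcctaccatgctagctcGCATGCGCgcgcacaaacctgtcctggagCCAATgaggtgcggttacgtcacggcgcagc
Sdhb (chr4:140961121-140961270, plus strand): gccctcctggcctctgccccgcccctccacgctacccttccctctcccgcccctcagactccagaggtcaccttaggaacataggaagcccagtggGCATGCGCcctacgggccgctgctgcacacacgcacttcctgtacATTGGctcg

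The motifs searched on both strands were the core of the NRF1 site (GCATGCGC or GCGCATGC), the ETS core bound by the GABP factor (CCGGAAG or CTTCCGG) and the CCAAT box (CCAAT or ATTGG). NRF1 and GABP are transcription factors known for nuclear genes of mitochondrial proteins. Within 250 bases before the start, the NRF1 core was found in 7 of the 53 member genes (13.2%), against 2.56% of 27025 genes in the table. The ETS core was found in 14 member genes (26.4%, against 7.83%) and the CCAAT box in 26 (49.1%, against 37.5%). The NRF1 core shares letters with its own reverse complement, and no motif contains another. In the printed stretches, Cycs and Sdhb held an NRF1 core and a CCAAT box, Cox6a1 an ETS core and a CCAAT box, and Atp5b a pair of CCAAT boxes. The printed stretch of Cox8a held none of the 3 motifs. A match describes the letters in this window only.

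Set against the median clone, oxidative phosphorylation genes stood lower in EBs than in D0 cells, if the sample is on top of the ratio in both dyes. The mean of the 8 EB conditions lay below D0 within both dyes for 63 of the 92 members (68.5%), against 30.9% of all clones. It lay above D0 within both dyes for 13 members (14.1%), against 32.8% of all clones. The median member difference was -0.83 on the Cy3 arrays and -0.47 on the Cy5 arrays, while the medians over all clones were 0.02 and 0.01. By complex, the members below D0 within both dyes were 23 of 29 for complex V, 12 of 16 for complex IV, 7 of 9 for complex III, 2 of 2 for cytochrome c, 14 of 24 for complex I and 2 of 5 for complex II. Assembly factors split into 3 below and 3 above. The count was 30 of 39 on slide 1 (76.9%, against 33.3% of all its clones) and 33 of 53 on slide 2 (62.3%, against 28.4%). The 13 above D0 in both dyes were Ndufb10, Ndufb11, Ndufs3, Ndufs6, Ndufv3, Ndufs5-ps, Sdhc, Cox6b2, Ndufaf1, Ndufaf6 and 1 clone each of Cox8a, Atp5g3 and Sdhaf2. The count below was 66 of 92 without the D2-LIF Cy5 and D1+LIF Cy5 arrays, which lacked values. With Cy3 values turned in sign it was 8 of 92 (8.7%, against 18.5% of all clones), and another 8 were above D0 in both dyes (8.7%, against 17.8%). Those 8 below were 2 of 29 clones of complex V, 1 of 16 of complex IV, 1 of 9 of complex III, 0 of 2 of cytochrome c, 2 of 24 of complex I and 2 of 5 of complex II. No test compared the complexes with each other.

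**Figure D1:**
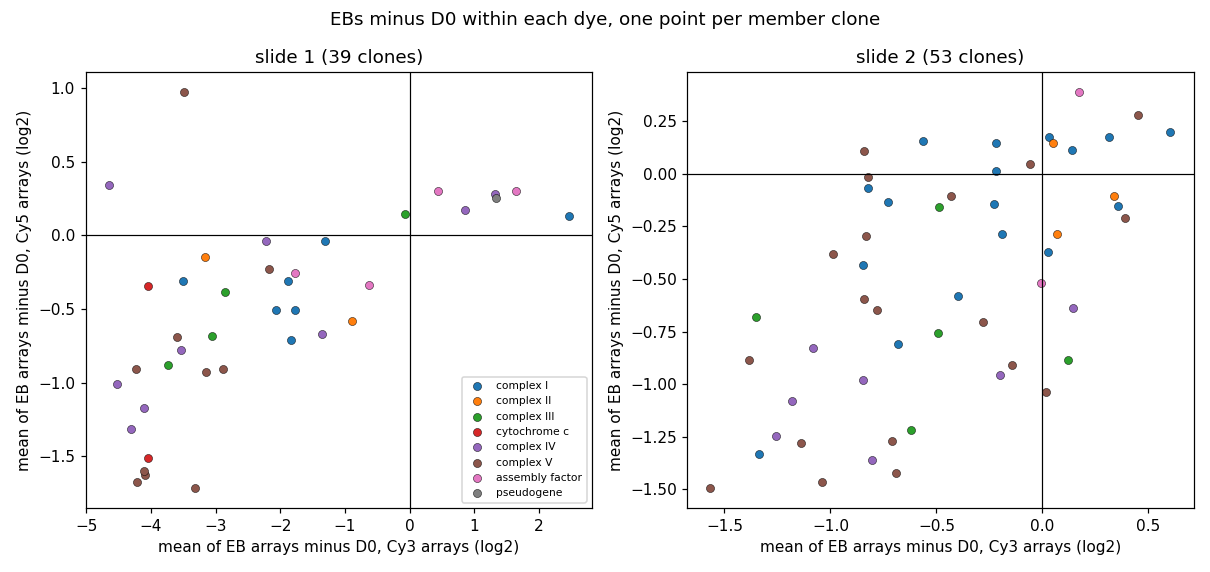
Mean of the EB arrays minus D0 (log2) on the Cy3 arrays (horizontal axis) and on the Cy5 arrays (vertical axis), 1 point per member clone, for slide 1 (left, 39 clones) and slide 2 (right, 53 clones), coloured by complex. The axes differ between the panels. The lower left of each panel, below D0 in both dyes, holds 30 clones on slide 1 and 33 on slide 2.

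The size of this difference, and in part its direction, depended on the centring. Before it, the median log2 ratio of the members stayed between -0.34 and 0.20 on the 18 arrays, while the median of all clones ranged from -0.57 to 0.86. On the D0 Cy3 array the members had a median of 0.15 and all clones -0.57, and on slide 1 of that array these were 0.23 and -2.73. Without centring, the mean of the EB conditions minus D0 had a member median of -0.26 in Cy3 and -0.04 in Cy5, and an all-clone median of 0.55 and 0.48. Members below D0 were 51 of 92 in Cy3 and 47 of 92 in Cy5. On slide 2 the Cy5 member median was 0.03, with 26 of 53 members below D0. The count below D0 within both dyes was then 36 of 92 members (39.1%, against 9.69% of all clones), with 30 members above D0 (32.6%, against 71.9%). After each array was also set to the same spread, the counts were 46 below (50.0%, against 20.3%) and 7 above (7.61%, against 25.7%). The difference from D0 is thus one relative to the other clones of the array, whose deposited ratios ranged more widely than those of the members.

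**Figure D2:**
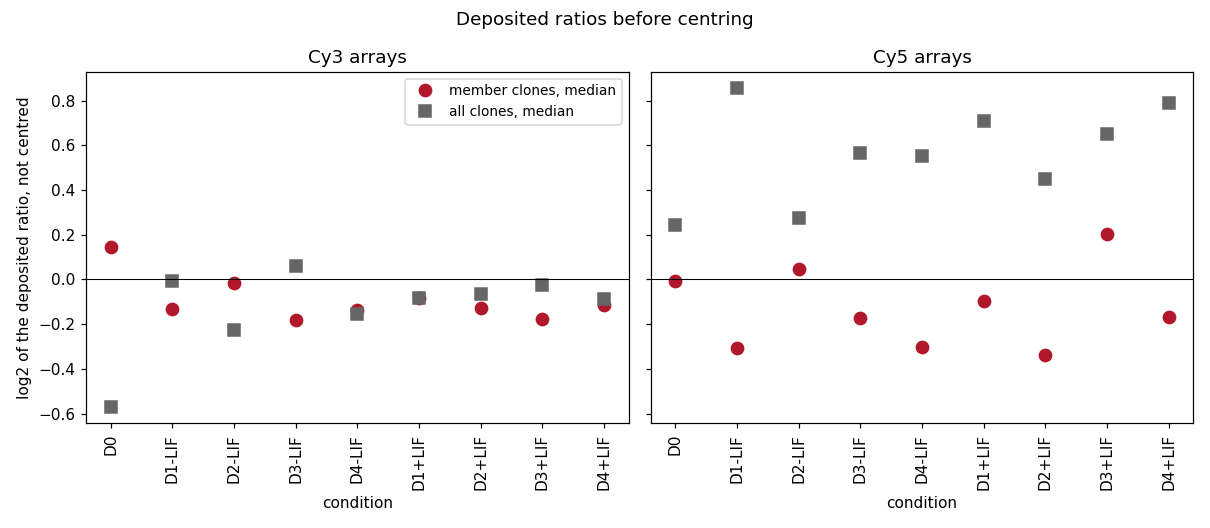
Median of the member clones (circles) and of all clones (squares) on each array, as log2 of the deposited ratio before centring, for the Cy3 arrays (left) and the Cy5 arrays (right), with the 9 conditions along the horizontal axis. The circles stay between -0.34 and 0.20, whereas the squares range from -0.57 (D0 Cy3) to 0.86 (D1-LIF Cy5).

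The arrays of each dye gave the members a pattern of its own. The median member lay between -0.24 (D3-LIF) and 0.18 (D2-LIF) on the 8 EB arrays in Cy3, against 0.77 on the D0 Cy3 array, where 68 of 92 clones were above 0. In Cy5 it lay between -1.19 (D1-LIF) and -0.22 (D2-LIF) on the EB arrays, with 69.1% to 89.1% of the clones below 0. It was -0.28 on the D0 Cy5 array, with 75 of 92 clones below 0. D0 was the highest of the 9 conditions for 63 of 92 members in Cy3 (36.4% of all clones) and for 21 of 68 in Cy5 (16.4% of all clones). It was highest in both dyes for 15 of 68 members (22.1%, against 8.35% of all clones), and for 0 of 68 with the Cy3 sign turned (2.97% of all clones). Those 15 were clones of Ndufa7, Ndufc1, Ndufv2, Cycs, Cox4i1 (3 clones), Cox6b1, Atp5a1 (2 clones), Atp5b, Atp5c1, Atp5g3, Atp5j and Atp5md.

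**Figure D3:**
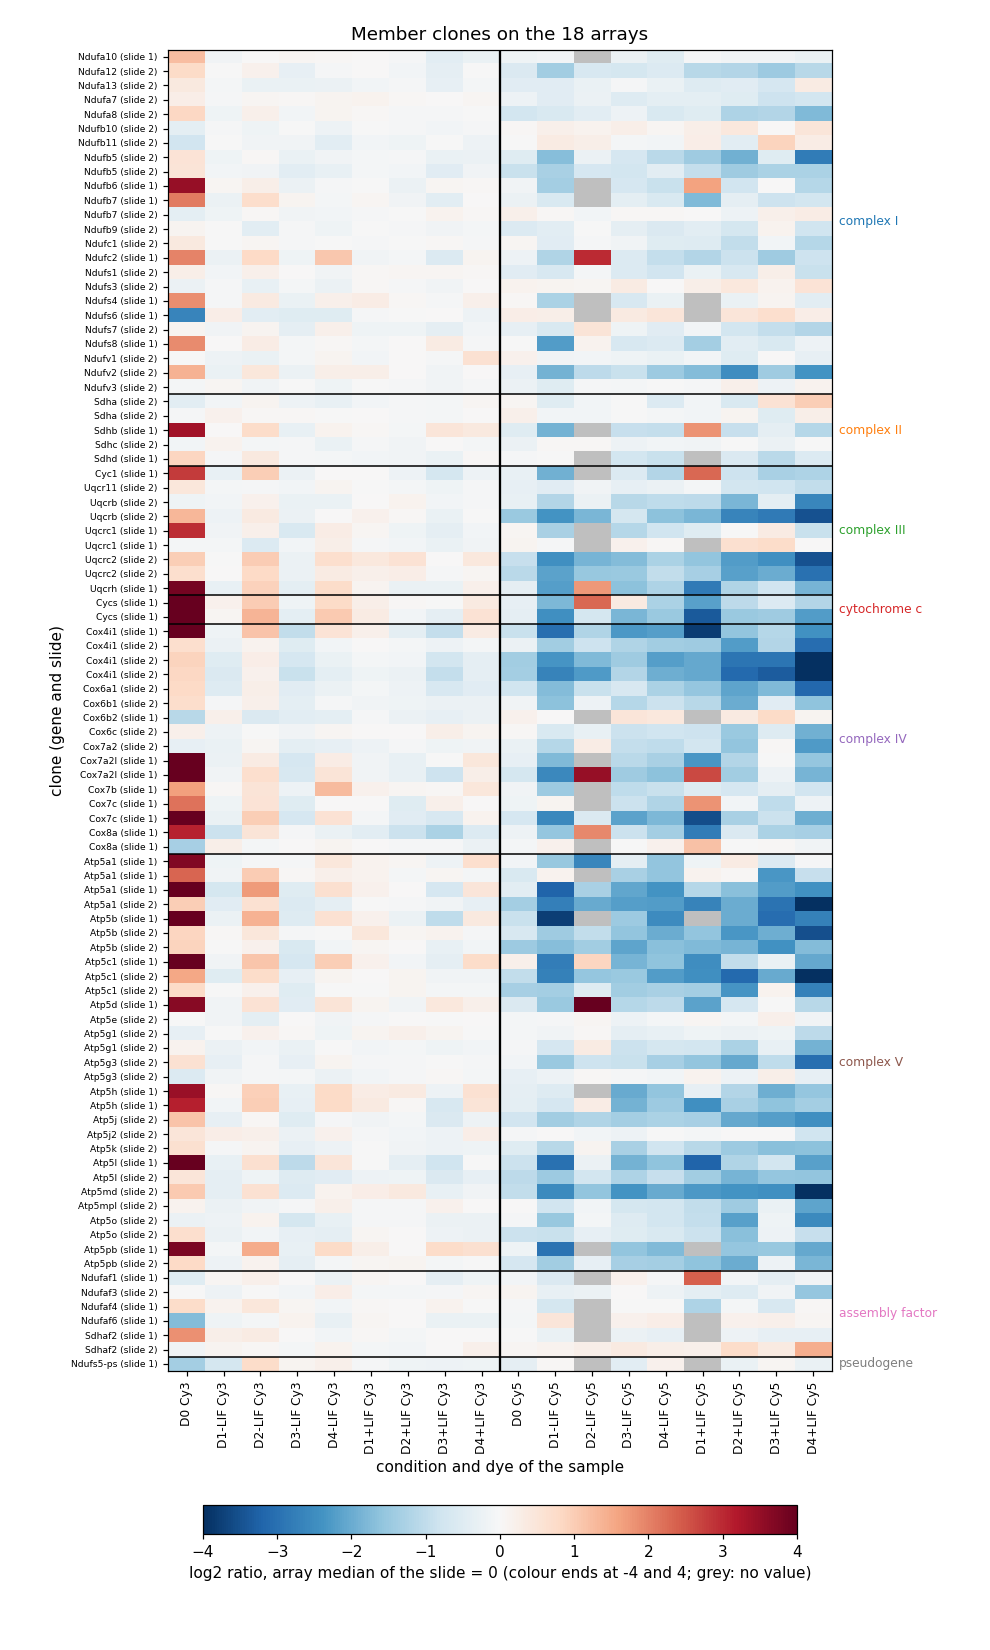
Centred log2 ratio of each of the 92 member clones (vertical axis, grouped by complex, with the slide of each clone) on the 18 arrays (horizontal axis, Cy3 arrays left and Cy5 arrays right). Red is above and blue below the median clone of the slide, the colour ends at -4 and 4, and grey marks a missing value. The D0 Cy3 column is red for 68 of 92 clones, and the Cy5 columns of the EB conditions are blue for 69.1% to 89.1% of the clones with a value.

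In the combined fit over the 18 arrays (limma, with a dye term and Benjamini-Hochberg adjustment over all 15360 clones), no member and no other clone passed an adjusted p of 0.05 in any of the 8 differences between an EB condition and D0. The share of all clones called was thus 0% in each. At an unadjusted p under 0.05 there were 40 of 92 members for D1-LIF, 6 for D2-LIF, 31 for D3-LIF and 29 for D4-LIF. Of all 15360 clones there were 3354, 1175, 2880 and 1814. At D2-LIF the share of the members was below that of all clones. For the EBs with LIF there were 32 of 92 members at D1, 43 at D2, 42 at D3 and 51 at D4. Of all 15360 clones there were 3160, 2772, 3269 and 4086. The moderated F test over the 9 conditions called 0 members and 0 clones, with 13 of 92 members and 602 of 15360 clones at an unadjusted p under 0.05. This depended on single arrays. Without the D0 Cy5 array, which leaves D0 with the Cy3 array alone, 33, 17, 34 and 32 of 92 members passed at D1 to D4 without LIF and 27, 34, 38 and 38 with LIF, but so did 32.6%, 22.6%, 31.0%, 27.5%, 29.7%, 30.9%, 34.5% and 36.4% of all clones. The F test then called 11 members and 15.1% of all clones. Without the D4+LIF Cy3 array, 28 members passed for D4+LIF (18.7% of all clones), and without the D1+LIF Cy3 array 11 of the members passed for D1+LIF (16.3%).

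Fitted member medians were below D0 in all 8 EB conditions. Without LIF they were -0.79 at D1, -0.24 at D2, -0.66 at D3 and -0.59 at D4 on the log2 scale. With LIF they were -0.60 at D1, -0.86 at D2, -0.80 at D3 and -1.07 at D4. Medians over all clones lay within -0.02 to 0.03. The 9866 clones with 1 symbol, from which the members were drawn, had medians of -0.04 (D2-LIF) to -0.16 (D4+LIF). Of these clones, 54.9% (D2-LIF) to 59.3% (D2+LIF) were below 0. A smaller shift the same way was thus seen across clones with 1 symbol. The counts within both dyes are set against all clones. The number of members below 0 was 77, 65, 74 and 79 of 92 at D1 to D4 without LIF and 72, 76, 72 and 74 with LIF. With the Cy3 sign turned, the medians were 0.10, 0.23, 0.33 and 0.16 at D1 to D4 without LIF and 0.15, 0.03, 0.18 and -0.03 with LIF, so the direction of the combined fit rests on the assumption that the sample is on top in both dyes. All these differences share the same 2 D0 arrays and are not independent of each other.

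Within each dye the same differences can be counted for single EB conditions. Members below D0 in both dyes were 63 of 92 at D1-LIF (68.5%, against 33.7% of all clones), 26 of 68 at D2-LIF (38.2%, against 23.0%), 62 of 92 at D3-LIF (67.4%, against 30.2%) and 58 of 92 at D4-LIF (63.0%, against 30.8%). With LIF they were 52 of 82 at D1 (63.4%, against 30.5%), 63 of 92 at D2 (68.5%, against 32.1%), 55 of 92 at D3 (59.8%, against 29.6%) and 67 of 92 at D4 (72.8%, against 35%). With the Cy3 sign turned, the members below D0 in both dyes were 13%, 8.82%, 7.61% and 13% at D1 to D4 without LIF (all clones 18.9%, 23.1%, 21.0% and 23.4%) and 8.54%, 10.9%, 8.7% and 10.9% with LIF (all clones 21.7%, 21.6%, 22.7% and 19.6%). The counts below D0 therefore hold only if the sample is on top in both dyes. Members above D0 in both dyes after the turn were 28 of 68 at D2-LIF (41.2%, against 29.6% of all clones). In the other EB conditions they were 3.26% (D4+LIF) to 18.5% (D3+LIF), against 13.3% (D4+LIF) to 22.7% (D1+LIF) of all clones.

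A cut of over 1 log2 unit in both dyes was also counted. Without LIF, 28 of 92 members were below D0 by that much at D1 (30.4%, against 7.23% of all clones), 1 of 68 at D2 (1.47%, against 1.61%), 12 of 92 at D3 (13%, against 4.49%) and 14 of 92 at D4 (15.2%, against 3.22%). With LIF they were 16 of 82 at D1 (19.5%, against 7.95%), 10 of 92 at D2 (10.9%, against 2.4%), 19 of 92 at D3 (20.7%, against 4.47%) and 22 of 92 at D4 (23.9%, against 5.35%). At D2-LIF the share of the members was near that of all clones. Above D0 by over 1 in both dyes stood 1 of 82 members at D1+LIF (1.22%, against 3.65%) and 0 in the other 7 EB conditions (0.0521% of all clones at D1-LIF, and 0.0391% to 0.887% over the 7). With the Cy3 sign turned, 0 members were below D0 by over 1 in both dyes in any EB condition, and 6 of 68 at D2-LIF (8.82%, against 3.39%) and 5 of 82 at D1+LIF (6.1%, against 4.36%) were above.

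**Figure D4:**
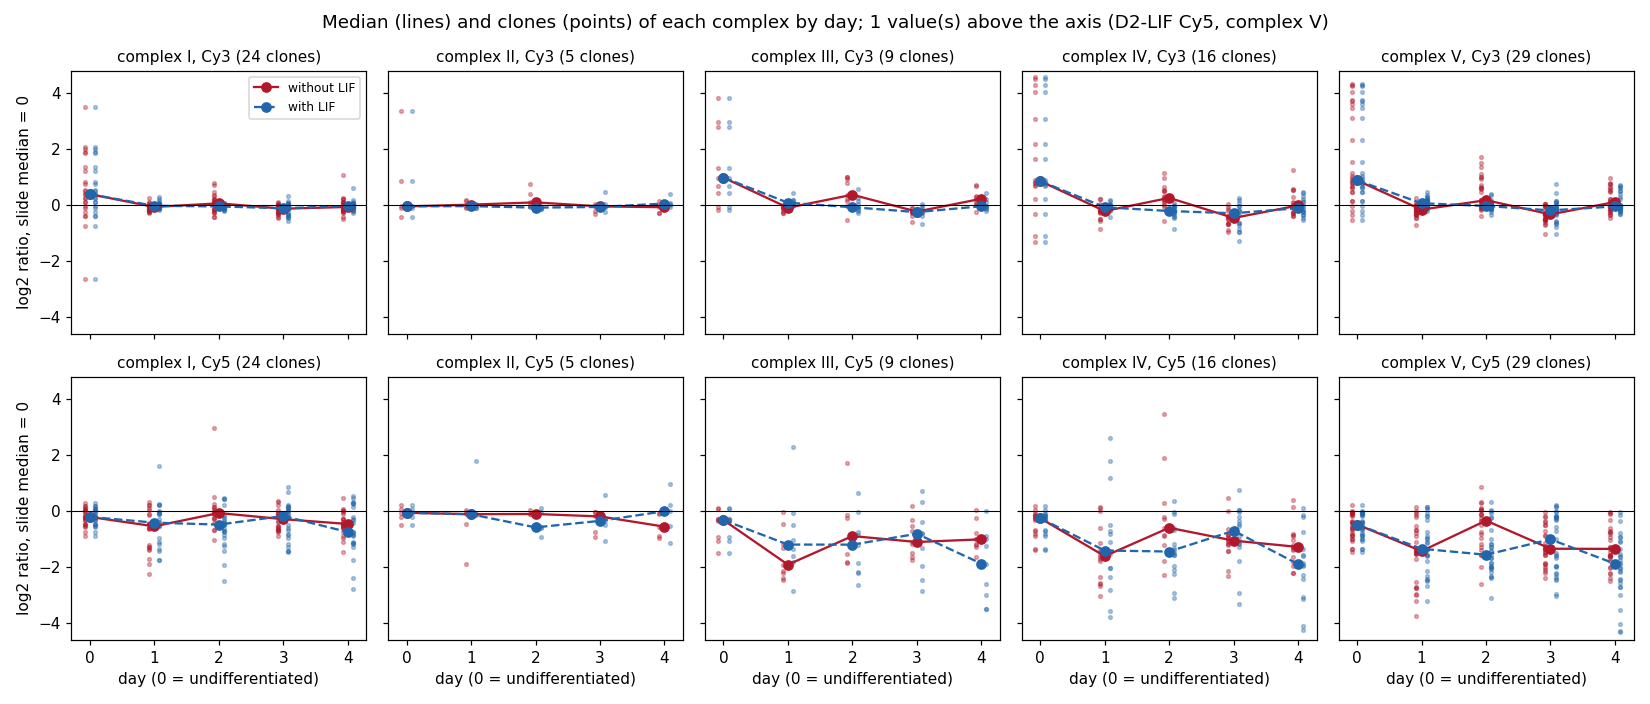
Centred log2 ratio (vertical axis) by day (horizontal axis, 0 is D0) for complexes I to V, with Cy3 arrays in the upper and Cy5 arrays in the lower panels. Points are clones and lines join the medians, solid red without LIF and dashed blue with LIF, and the single D0 array of each dye is drawn once in each colour. Complex V medians were 0.88 (Cy3) and -0.48 (Cy5) at D0, and complex II medians in Cy3 stayed between -0.09 and 0.10 on every array.

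Complex V was the largest group and held the smallest adjusted p-values of the members at D1-LIF and D4+LIF. Its fitted median was between -0.36 (D2-LIF) and -1.47 (D4+LIF) below D0, and between 22 and 28 of its 29 clones were below 0. That median reached 0.41 (D3-LIF) with the Cy3 sign turned, and was then below 0 only at D2+LIF (-0.02) and D4+LIF (-0.17). Atp5a1 encodes the alpha subunit of the F1 head and had 4 clones. The slide 1 clone with the smallest p-value had -0.71, 1.72, -0.49 and 0.63 on the D1 to D4 Cy3 arrays without LIF, against 4.24 on the D0 Cy3 array. In Cy5 it had -3.20, -1.28, -2.08 and -2.39 at D1 to D4 without LIF, against -0.42 at D0. For this clone both dyes thus put D0 above these 4 EB conditions. Its fitted difference was -3.87 ± 0.69 (SE) for D1-LIF against D0, the smallest adjusted p of any member there (limma, adjusted p = 0.086). The other slide 1 clones had an EB mean minus D0 of -0.69 and -0.23 in Cy5. Their highest EB values in Cy5 (0.33 and 0.15) were above their D0 values (-0.12 and -0.60). The slide 2 clone was below D0 in all EB conditions in both dyes.

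Atp5b, the catalytic beta subunit, had 3 clones, 1 on slide 1 and 2 on slide 2. The slide 1 clone lay between -1.03 and 1.38, with a median of -0.03, on the EB Cy3 arrays, against 4.29 on the D0 Cy3 array. In Cy5 it was at -0.90 at D0 and at -3.76, -1.46 and -2.51 at D1, D3 and D4 without LIF, with no value at D2. With LIF it had -1.99, -3.05 and -2.71 at D2 to D4 in Cy5, and no value at D1. All 6 measured EB values in Cy5 were below D0. The first slide 2 clone had 0.85 (D0) and 0.46, 0.08, 0.14 and -0.05 (D1 to D4 with LIF) in Cy3, and -0.65 (D0) and -1.58, -2.33, -1.95 and -3.52 (D1 to D4 with LIF) in Cy5. D4+LIF was its lowest value in both dyes. The second slide 2 clone lay between -0.62 and 0.17 in EBs in Cy3, against 0.88 at D0, and between -2.42 and -1.38 in Cy5, which overlapped its D0 value of -1.45. Fitted differences of D4+LIF from D0 were -2.85 ± 0.87, -1.88 ± 0.43 and -0.64 ± 0.22 (SE) for the 3 clones (limma, adjusted p between 0.11 and 0.15), so the size of the difference was not the same for all clones of this gene.

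Of the other F1 and stalk subunits, Atp5c1 (gamma, 3 clones) differed by -2.92 ± 0.89 on slide 1 and by -2.49 ± 0.55 and -1.11 ± 0.59 on slide 2 in the same comparison. Atp5pb, subunit b of the peripheral stalk, differed by -2.49 ± 0.56 on slide 1 and -0.99 ± 0.43 on slide 2. Atp5j, which encodes F6 of the peripheral stalk, had 1.15 (D0), -0.15, -0.09, -0.58 and -0.20 (D1 to D4 with LIF) in Cy3 and -0.77 (D0), -1.34, -2.04, -2.21 and -2.46 (D1 to D4 with LIF) in Cy5. In Cy5 each later day was lower. Atp5md, a small membrane subunit, had 1.05 at D0 and 0.28, 0.39, -0.29 and -0.13 at D1 to D4 with LIF in Cy3. In Cy5 it had -0.99 at D0 and -2.30, -2.39, -2.44 and -4.04. Its D4+LIF difference was -2.11 ± 0.41, the smallest adjusted p of any member in that comparison (limma, adjusted p = 0.095). This clone lies on slide 2, and slide 2 of the D4+LIF Cy5 array had the widest spread of the slide 2 arrays. Atp5e, the epsilon subunit, stayed within -0.41 to 0.19 on all 18 arrays.

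The clones of one gene did not always go together. Atp5g3 encodes a form of the ring subunit c. The EB mean minus D0 of one slide 2 clone was -0.69 in Cy3 and -1.42 in Cy5, whereas that of the other was 0.45 and 0.28. For Atp5d, the delta subunit, the D2-LIF Cy5 array gave 10.8, on a slide with few values, while the other EB arrays in Cy5 lay between -2.13 and -0.02. Among the 21 genes with at least 2 clones, 12 had all clones on the same side of D0 in each dye, and 9 did not (Ndufb7, Uqcrb, Uqcrc1, Cox7a2l, Cox8a, Atp5g1, Atp5g3, Atp5o and Sdhaf2).

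In complex IV, 12 of 16 clones were below D0 within both dyes. Cox4i1 encodes the subunit that starts assembly of the enzyme around its mitochondrially encoded core, and all of its 4 clones were below D0 in both. The slide 1 clone had 4.28 on the D0 Cy3 array and -0.16, 1.13, -0.97 and 0.55 (D1 to D4 without LIF) and 0.19, -0.38, -0.96 and 0.33 (D1 to D4 with LIF) on the EB Cy3 arrays. In Cy5 it had -0.89 at D0, then -3.02, -1.20, -2.31 and -2.21 without LIF and -3.78, -1.58, -1.15 and -2.43 with LIF. D0 was the highest condition in both dyes. At D4+LIF the 3 slide 2 clones had -0.08, -0.36 and -0.35 in Cy3, against 0.68, 0.88 and 0.83 at D0. In Cy5 they had -3.05, -4.11 and -4.26 at D4+LIF, against -0.23, -1.39 and -1.35 at D0. Fitted D4+LIF differences from D0 were -2.75 ± 0.96 on slide 1 and -1.79 ± 0.48, -1.98 ± 0.52 and -2.04 ± 0.63 on slide 2 (SE; limma, adjusted p between 0.12 and 0.15).

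Cox6a1, the ubiquitous form of subunit 6a, lay between -0.65 and 0.24 in EBs in Cy3, against 0.79 at D0. In Cy5 it had -1.72, -0.88, -0.64 and -1.27 at D1 to D4 without LIF and -1.53, -2.10, -1.78 and -3.14 with LIF, against -0.80 at D0. Only D3-LIF was above D0 in Cy5. The EB mean minus D0 was -0.85 in Cy3 and -0.98 in Cy5 for Cox6b1, but 0.85 and 0.17 for Cox6b2, the testis form of the same subunit. Cox8a, a small subunit, had 2 clones on slide 1 that opposed each other. The first lay between -1.27 and 0.51 in EBs against 3.06 at D0 in Cy3, and between -2.81 and 1.91 in EBs against -0.21 at D0 in Cy5. The second lay between -0.23 and 0.22 in EBs against -1.32 at D0 in Cy3, and between -0.13 and 1.18 in EBs against -0.08 at D0 in Cy5. Their D4+LIF differences were -2.37 and 0.52 (limma, adjusted p = 0.16 and 0.33). Cox7a2l, a factor for supercomplexes that is related to Cox7a, stood at 4.50 and 4.57 on the D0 Cy3 array, the highest member values there.

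**Figure D5:**
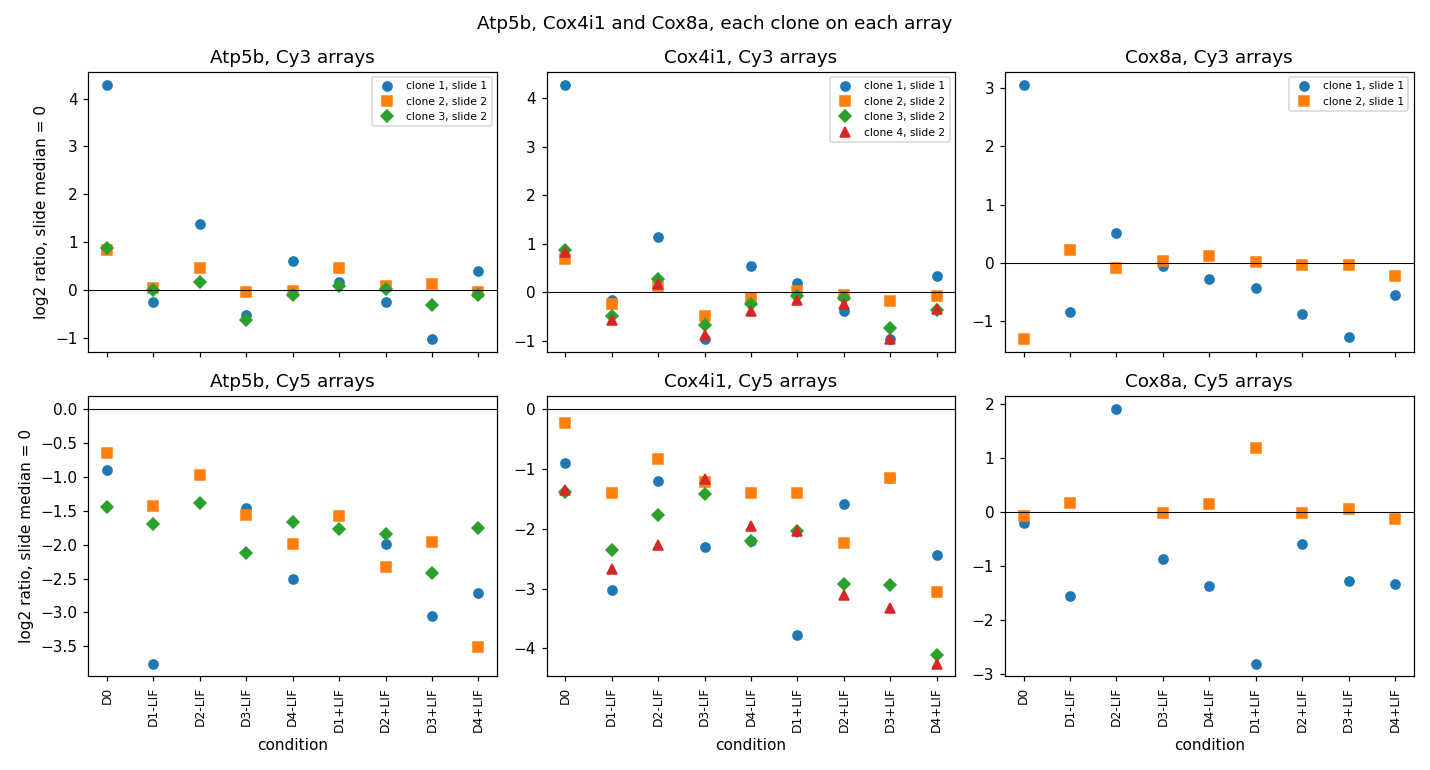
Centred log2 ratio (vertical axis) of each clone of Atp5b (3 clones), Cox4i1 (4) and Cox8a (2) in the 9 conditions (horizontal axis), Cy3 arrays above and Cy5 arrays below, with the vertical axis of each panel scaled to its own values. All Atp5b and Cox4i1 clones have their highest Cy3 value at D0, and the Cox8a clones stand at 3.06 and -1.32 there.

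In complex III, 7 of 9 clones were below D0 within both dyes and none above in both. Uqcrc2 encodes a core protein and had 2 slide 2 clones. At D4+LIF these had 0.42 and 0.09 in Cy3, against 0.98 and 0.67 at D0, and -3.50 and -2.99 in Cy5, against -0.92 and -1.07 at D0. Their fitted D4+LIF differences were -1.57 ± 0.47 and -1.25 ± 0.40 (SE). Uqcrh, the hinge protein that contacts cytochrome c1, lay between -0.40 and 0.92 in EBs in Cy3, against 3.83 at D0. In Cy5 it lay between -2.84 and 1.73 in EBs, against -0.37 at D0, and only the sparse D2-LIF Cy5 array was above D0. Cyc1 (cytochrome c1) had a median of -0.21 in EBs against 2.79 at D0 in Cy3, and of -1.19 in EBs against -0.29 at D0 in Cy5.

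Cytochrome c (Cycs), the mobile carrier between complexes III and IV, had 2 slide 1 clones. They reached at most 1.01 and 1.35 on any EB Cy3 array, against 4.34 and 4.36 on the D0 Cy3 array. In Cy5 the second clone had -0.36 at D0, -2.45, -0.71, -1.83 and -1.48 at D1 to D4 without LIF and -3.36, -1.50, -1.43 and -2.22 with LIF, all below D0. The first clone was above D0 in Cy5 on the D2-LIF (2.31) and D3-LIF (0.36) arrays, against -0.32 at D0. Fitted differences of D1-LIF from D0 were -2.82 ± 1.12 and -3.19 ± 0.76 (SE, limma, adjusted p = 0.22 and 0.14). Once the Cy3 sign was turned, the fitted median of the 2 clones was above D0 in every EB condition. It then lay between 0.82 (D1+LIF) and 2.16 (D2-LIF).

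Complex I held clones on both sides of D0. Its fitted median lay between -0.14 (D2-LIF) and -0.53 (D4+LIF), and 15 to 19 of 24 clones were below 0. That median lay between -0.0001 (D1-LIF) and 0.31 (D3-LIF) with the Cy3 sign turned. Among the core subunits, Ndufv2 of the NADH-binding module lay between -0.28 and 0.46 in EBs in Cy3, against 1.38 at D0. In Cy5 it had -0.33 at D0 and -1.89, -1.04, -0.89 and -1.45 at D1 to D4 without LIF and -1.74, -2.49, -1.41 and -2.40 with LIF. D0 was thus above all 8 EB conditions in both dyes. Ndufs8, which carries iron-sulphur clusters, had an EB mean minus D0 of -1.83 in Cy3 and -0.71 in Cy5. The EB mean minus D0 of Ndufv1 (NADH-binding), Ndufs3 and Ndufs7 lay between -0.37 and 0.14 in each dye. Among the supernumerary subunits, Ndufs6 went the other way. It lay between -0.48 and 0.26 in EBs against -2.64 at D0 in Cy3, and between 0.23 and 0.67 in EBs against 0.28 at D0 in Cy5. Ndufb10 (0.31 in Cy3 and 0.17 in Cy5) and Ndufb11 (0.60 and 0.20) also had an EB mean above D0 in both dyes. The EB mean minus D0 of the Ndufs5-ps pseudogene was 1.34 and 0.25.

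Complex II, which is also the succinate dehydrogenase of the citric acid cycle, had 5 clones. Both slide 2 clones of Sdha, the flavoprotein, and the clone of Sdhc, a membrane anchor, stayed between -0.42 and 0.18 on all Cy3 arrays. The slide 1 clone of Sdhb, the iron-sulphur subunit, lay between -0.30 and 0.74 in EBs against 3.35 at D0 in Cy3, and between -1.89 and 1.81 in EBs against -0.48 at D0 in Cy5. Sdhd, the other anchor, lay between -0.25 and 0.38 in EBs against 0.86 at D0 in Cy3. The 2 complex II clones below D0 in both dyes were these slide 1 clones, and none of the 3 slide 2 clones was. Slide 1 of the D0 Cy3 array stood apart, as did slide 1 of the D2-LIF Cy5 and D1+LIF Cy5 arrays. The part of these slides in the values was not tested.

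EBs without LIF were compared with EBs with LIF on each day, which does not use the D0 arrays. No member and no other clone passed an adjusted p of 0.05 on any day or in the mean of the 4 days (0% of all clones, limma). At an unadjusted p under 0.05 there were 2, 7, 0 and 8 of 92 members at D1 to D4 and 2 in the mean. Of all 15360 clones there were 397, 607, 92, 1166 and 528. Fitted member medians were -0.14, 0.52, -0.07 and 0.22 at D1 to D4 and 0.17 in the mean. All clones had -0.04, 0.03, -0.02, 0.00 and -0.02. Clones with 1 symbol had -0.04, 0.09, -0.02 and 0.03 at D1 to D4. With the Cy3 sign turned, the member medians were 0.01, 0.17, 0.04 and 0.15 at D1 to D4 and 0.08 in the mean. Leaving out the Cy3 array of one condition gave 3 called members at D1 (without D1+LIF Cy3, 12.8% of all clones), 3 at D2 (without D2-LIF Cy3, 2.77%) and 14 at D4 (without D4+LIF Cy3, 11.6%). The D2 median was 0.34 to 0.79 with 1 array left out and 0.14 both without centring and with equal spread. The D4 median was 0.03 to 0.36 with 1 array left out, 0.01 without centring and -0.06 with equal spread.

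At D2 more members lay above D2+LIF than below it within both dyes. Those above were 49 of the 68 members with values on all 4 arrays (72.1%, against 33.5% of all clones), with medians of 0.24 in Cy3 and 0.82 in Cy5. Those below were 4 of 68 (5.88%, against 26.8%). By complex the counts above were 6 of 6 for complex III, 10 of 11 for complex IV, 16 of 25 for complex V, 12 of 19 for complex I, 2 of 3 for complex II and 2 of 2 for cytochrome c. Cox6b1 was 0.37 higher without LIF in Cy3 and 1.75 higher in Cy5, and Cox6a1 0.44 and 1.22 higher. The D2-LIF Cy5 array is one of those that stood apart. On slide 2, where it had all values, the count was 35 of 53 (66.0%, against 30.7% of all clones). Turning the Cy3 sign gave 11 of 68 (16.2%, against 22.4% of all clones), and without centring it was 25 of 68 (36.8%, against 13.1%). With equal spread on each array it was 29 of 68 (42.6%, against 21.4%).

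On the other days fewer members went one way in both dyes. At D1, 42 of 82 members were lower without LIF in both dyes (51.2%, against 34.4% of all clones), among them 7 of 8 complex III clones. At D3, 40 of 92 were lower without LIF (43.5%, against 33.7%) and 25 were higher (27.2%, against 27.0%). At D4, 40 of 92 were higher without LIF in both dyes (43.5%, against 30.7%), among them 8 of 9 complex III and 15 of 29 complex V clones. Lower without LIF at D4 were 15 of 92 (16.3%, against 29.4%), among them 4 of 5 complex II clones. One clone of Uqcrc2 differed by 1.12 ± 0.40 without LIF against with LIF at D4 and one of Sdha differed by -0.95 ± 0.34 (SE for both), each at a limma adjusted p of 0.63. After the Cy3 sign was turned, 9 of 82 members were lower without LIF in both dyes at D1 (11%, against 22.3% of all clones), none of them in complex III, and 9 of 92 at D3 (9.78%, against 15.1%). Higher without LIF were then 24 of 82 at D1 (29.3%, against 22.5%) and 18 of 92 at D3 (19.6%, against 24.2%). The 24 at D1 included 11 of 27 complex V and 6 of 15 complex IV clones. At D4, 28 of 92 were then higher without LIF (30.4%, against 25.8%), with 1 of 9 complex III and 10 of 29 complex V clones among them. Of the 5 complex II clones, 1 was then higher and 0 were lower.

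Slopes per day from D0 to D4 were fitted in each series, so each takes in the step from the 2 D0 arrays to the EBs. Against D0, the fitted member median without LIF was lowest at D1 (-0.79, against -0.59 at D4). With LIF it was lowest at D4 (-1.07, against -0.60 at D1). The member median was -0.10 per day without LIF and -0.20 per day with LIF, against 0.00 for all clones in both. Clones with 1 symbol had -0.01 and -0.04. No member passed the threshold (0% of all clones). The numbers at an unadjusted p under 0.05 were 16 of 92 members without LIF and 39 with LIF. Of all 15360 clones there were 1219 and 3112. Without the D0 Cy5 array, 30 and 43 members passed without and with LIF (25.5% and 35.6% of all clones). Median slopes with LIF were -0.38 for complexes III and IV, -0.33 for complex V, -0.14 for complex I and -0.02 for complex II. Atp5j had -0.37 ± 0.07 and Atp5md -0.46 ± 0.09 per day with LIF (SE; limma, adjusted p = 0.097 for both). With the Cy3 sign turned, the median slopes were 0.06 without LIF and 0.01 with LIF. By complex the median slopes with LIF were then -0.05 for complex III, -0.03 for complex IV, 0.03 for complex V and 0.01 for complexes I and II.

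When the clones of slide 2 were fitted alone, members passed the threshold with LIF. For D4+LIF against D0 there were 19 of 53 (35.8%, against 17.1% of 7680 clones), of which 18 were lower (34.0%, against 8.79%). Those lower were 8 of 19 complex V clones, 5 of 7 of complex IV, 3 of 5 of complex III and 2 of 17 of complex I. They ranged from Atp5c1 at -2.49 to Atp5b at -0.64 (limma, adjusted p = 0.022 and 0.048), and the 1 higher clone was Sdhaf2 at 0.87 (adjusted p = 0.044). The call rested on single arrays. No member was called without the D0 Cy3 array or without the D4+LIF Cy5 array, 3 were called without the D0 Cy5 array (7.2% of all clones) and 37 without the D4+LIF Cy3 array (52.6% of all clones). The other single arrays left out gave 7 to 16 (5.85% to 13.8% of all clones). None was called with the Cy3 sign turned, with no dye term or with equal spread on each array. For D4+LIF against D0, the median of the 53 slide 2 members was -0.84. It became -0.07 with equal spread and -0.26 with the Cy3 sign turned. The slope with LIF passed for 13 of the 53 clones, all lower (24.5%, against 5.29%), and D3+LIF against D0 for 1 clone of Atp5b (-1.08, limma, adjusted p = 0.041, against 0.469% of clones lower). The checks given for D4+LIF were not run for these calls on slide 2 alone.

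Other mitochondrial gene lists were measured beside the members. Import proteins and proteases, which bring in and clear the nuclear-encoded proteins of the organelle, had 24 of 35 clones below D0 in both dyes (68.6%). Carriers and porins of the mitochondrial membranes had 12 of 20 (60.0%), and enzymes of the citric acid cycle and pyruvate dehydrogenase 19 of 33 (57.6%). Factors of mitochondrial DNA expression and its regulators had 9 of 23 (39.1%), and other assembly and accessory factors of the respiratory chain 10 of 33 (30.3%). The share over all clones was 30.9%, and no clone of these lists passed the combined fit. Turning the Cy3 sign made these shares 14.3% for import proteins and proteases, 5.0% for carriers and porins, 9.09% for the citric acid cycle, 8.7% for mitochondrial DNA expression and 21.2% for the assembly and accessory factors, against 18.5% of all clones. Ratio data against a pool show differences between conditions and cannot show that a marker is absent.

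Marker genes of cell states were counted in the same way. Pluripotency genes had 8 of 11 clones below D0 in both dyes (72.7%), with median differences of -3.38 in Cy3 and -0.61 in Cy5. The median of these markers was between -0.22 and 0.24 on the EB Cy3 arrays, against 3.28 on the D0 Cy3 array, and between -1.60 and 0.05 on the EB Cy5 arrays, against -0.25 on the D0 Cy5 array. Extraembryonic endoderm markers had 10 of 21 clones below D0 in both dyes (47.6%), trophoblast markers 6 of 10 (60.0%), primitive ectoderm and neurectoderm markers 2 of 4, fibroblast markers 1 of 9 (11.1%) and the single mesendoderm clone 0. After turning the Cy3 sign, the clones below D0 in both dyes were 0 of 11 for pluripotency, 3 of 21 for extraembryonic endoderm, 0 of 10 for trophoblast, 1 of 4 for ectoderm, 2 of 9 for fibroblast and 1 of 1 for mesendoderm. The part of the cell mixture in the values of the members was not tested. In RNA from whole cultures, fewer cells of a type and less RNA per cell cannot be told apart.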

How the data were processed

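The study scanned 18 two-colour arrays (9 conditions in 2 dye orientations) and quantified spots in ImaGene 5.5. The deposited values are ratios of the 2 channels per spot: per the methods, the authors scaled both channels by their own mean intensity first. Intensities and backgrounds were not analysed here, so a filter on dim spots could not be set. Each of the 2 slides of an array held 17280 spots. Ratios were put on the log2 scale, duplicate spots (160 positions apart, median correlation 0.886, lowest 0.597) were averaged, and the median of each slide of an array was subtracted. Gene symbols came from the platform table, where 5220 clones had none and 274 had several.

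Differences were fitted with limma 3.58.1 in R 4.3.3 on all 15360 clones, with 9 condition means and a dye term (8 residual degrees of freedom for complete clones), with Benjamini-Hochberg adjustment. The threshold was an adjusted p of 0.05. The scripts were tested on simulated data. No pair of arrays held identical values.

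The members and gene lists were chosen with earlier results of these data known. Genes were named if the study named them, had the smallest F test p-values in a complex, were among the 5 highest or lowest in a difference, had at least 3 clones, belonged to an isoform family or passed a threshold. Others were named after their values were seen where a count or a complex is spelled out. Alternatives were other centring, scaling and slides, no dye term, the Cy3 sign turned, array weights, gene level and each array left out. The alternative of slide 1 alone, those applied to the counts within both dyes and the checks of slide 2 alone were chosen after seeing the data. cDNA clones can bind transcripts of related genes and pseudogenes.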

Additional observations from a re-analysis of the deposited data

How the results depend on the processing

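No member passed the threshold in the combined fit, and 452 of 501 counts of called members under alternatives were also 0. Centring over both slides together gave 3 members for D1-LIF (0.97% of all clones), 1 for D3-LIF (0.625%), 1 for D3+LIF (0.456%) and 3 for D4+LIF (0.853%) against D0 and 1 for the slope with LIF (0.703%). Clones with a value on every array gave 1 for D1-LIF (0.606% of these clones), 8 for D4+LIF (6.13%) and 2 for the slope with LIF (1.57%). Slide 2 alone gave 1 for D3+LIF, 19 for D4+LIF and 13 for the slope with LIF. The cause was not tested. The 19 became 0 with Cy3 values turned in sign, 0 with equal spread on each array and 0 with no dye term. The dye is also the replicate number, so the fit with no dye term is the one with no replicate block, and it called 0 members in every comparison. Arrays of the same number share only a number and a dye. After the mean of each dye was taken out, the 2 arrays of a condition correlated at -0.20 to 0.44, with a median of 0.17, and 8 of 9 were above 0.

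Leaving out 1 array gave 0 to 33 called members for D1-LIF, 0 to 17 for D2-LIF, 0 to 34 for D3-LIF, 0 to 32 for D4-LIF, 0 to 27 for D1+LIF, 0 to 34 for D2+LIF, 0 to 38 for D3+LIF and 0 to 38 for D4+LIF against D0. The highest of these came without the D0 Cy5 array. It gave 0 to 3, 0 to 3, 0 to 0 and 0 to 14 for the LIF differences at D1 to D4 and 0 to 0 for their mean. For the slopes it gave 0 to 30 without LIF and 0 to 43 with LIF, for the F test 0 to 11, and for D4+LIF on slide 2 alone 0 to 37. The share of all clones called beside each of these highest counts is given above with its comparison. For the differences from D0 without the D0 Cy5 array, that share was near the share of the members. These counts are thus not particular to the members. A condition left with 1 array was assumed to vary like the others.

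The count of members below D0 within both dyes was 36 without centring (9.69% of all clones) and 8 with Cy3 values turned in sign (18.5%), against 63 (30.9%), and 61 to 66 with 1 EB array left out. The count above D2+LIF at D2 was 25 without centring (all clones 13.1%), 29 with equal spread (21.4%) and 11 with the sign turned (22.4%), against 49 (33.5%). Of 24459 results of named clones under alternatives, 383 passed the threshold and none of those that turned sign (1491) did. With 2 arrays per condition, 8 residual degrees of freedom and no intensities, small differences were not detectable, and dim spots could not be told from bright ones.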
